A study of Sus scrofa with 6 samples.

Results

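CTSK, ADAMTS1 and HTRA1 encode 3 secreted or lysosomal proteases that act on cartilage matrix, and A2M encodes a broad protease inhibitor. They were taken as all probe sets that the platform's annotation gives 1 of these 4 symbols, which gave 8 of the 23999 probe sets that are not controls, for 4 of 6765 named genes. CTSK had 1 probe set, ADAMTS1 had 2, HTRA1 had 2 and A2M had 3. Cartilage of the pig growth plate and of pig joint surfaces was measured in its native state, and isolated primary chondrocytes of each were measured in culture at day 10 and day 20 of differentiation. The 6 groups were native growth plate, growth plate culture at day 10, growth plate culture at day 20, native articular, articular culture at day 10 and articular culture at day 20, with 1 Affymetrix array each. Per the labels, collagenase freed the cells, which grew at 37 °C under 5% oxygen with 5% carbon dioxide. Their medium was DMEM mixed with Ham's F12, with fetal bovine serum and antibiotics and no further supplement. The breed, age and number of animals, and whether the arrays of a cartilage share animals, are not given in the sources used here.

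Cartilage is built by chondrocytes, which hold collagen and aggrecan in balance by making both the matrix and the enzymes that cut it. In the growth plate that balance shifts as cells enlarge, mineralise their surroundings and give way to bone, while articular cartilage is kept for life. Cathepsin K, the product of CTSK, is a cysteine protease best known from osteoclasts, where it cuts fibrillar collagen in an acid compartment. ADAMTS1 is a secreted metalloprotease that cuts aggrecan and versican, HTRA1 is a secreted serine protease that cuts several cartilage proteins and antagonises TGF-beta family signalling, and alpha-2-macroglobulin, the product of A2M, traps proteases of many classes, among them matrix metalloproteases and ADAMTS enzymes. These roles are known mainly from human and mouse.

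The deposited values are linear signal intensities. A floor at the 40th percentile of all signals, a signal of 36.1, marks the level under which signals were treated as having no order. An array had 58.6% to 61.0% of its probe sets above it, and median signals ranged from 59.5 to 71.5. All 6 measured chondrocyte markers, which were COL11A1, ACAN, COL2A1, COMP, SOX9 and HAPLN1, were above the floor on 6 of 6 arrays. Of the 8 members' probe sets, 6 were above the floor on at least 2 arrays and entered the tests with 15636 probe sets in all. No condition was replicated, so differences between single arrays have no test. The p-values, from limma, come from an additive model of tissue and stage, in which departure from that sum stands for error. Changes between bulk samples cannot tell fewer cells of a type from less RNA per cell.

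**Figure D1:**
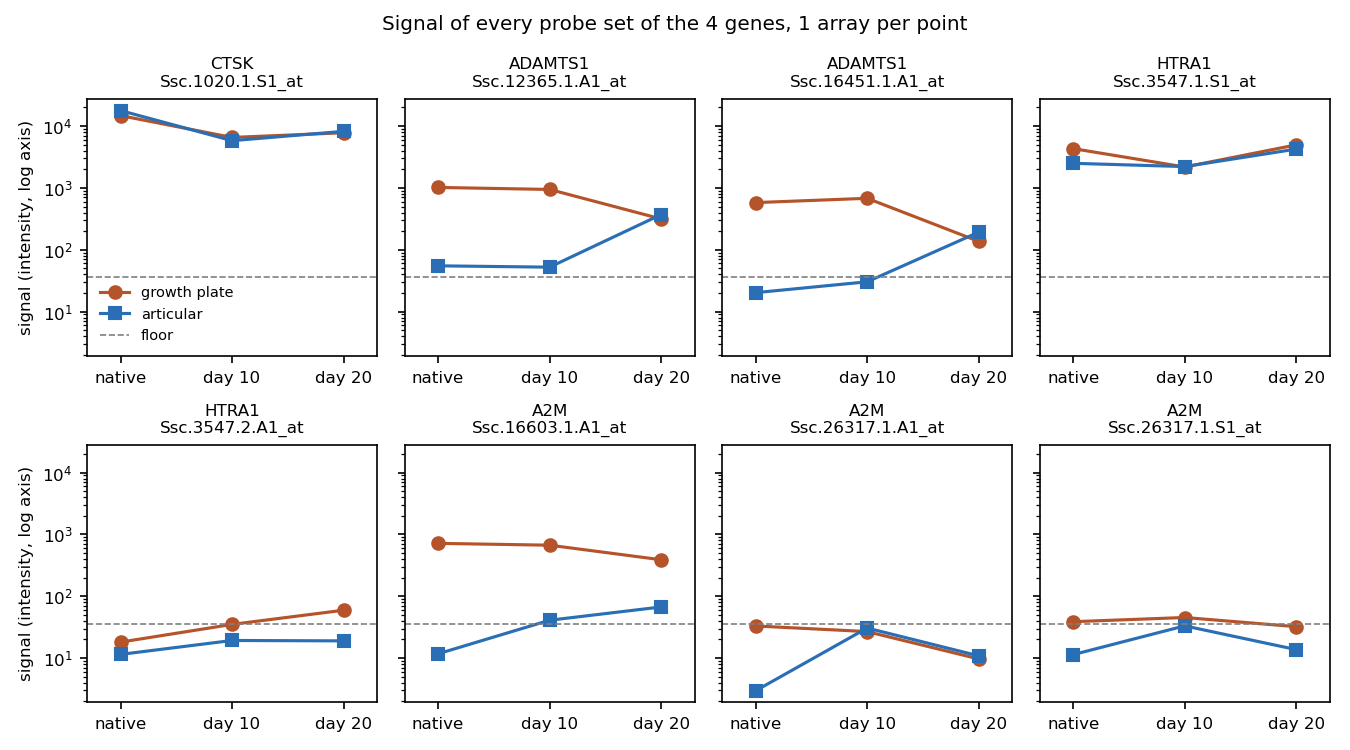
Signal intensity (log axis) of each of the 8 probe sets of CTSK, ADAMTS1, HTRA1 and A2M in native tissue and at day 10 and day 20 of culture, with growth plate as circles, articular as squares and the floor of 36.1 dashed; each point is 1 array. The CTSK and the brighter HTRA1 lines of both tissues run close together, the 2 ADAMTS1 panels meet at day 20, and 1 of the 3 A2M probe sets is bright in growth plate.

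CTSK had its highest signals in the native tissue of both cartilages, and its ratios between tissues at a given stage were small. In growth plate its probe set Ssc.1020.1.S1_at had signals of 14768 in native tissue, 6548 at day 10 and 7793 at day 20. In articular samples it had 17802, 5803 and 8225. Both native arrays lay above all 4 cultured arrays, and the lowest array, articular day 10, lay 3.07-fold under the highest, native articular. The share of all probe sets with native arrays above all cultures was not counted.

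In pairs of single arrays, CTSK was 2.26-fold lower at day 10 than in native growth plate, and 3.07-fold lower at day 10 than in native articular cartilage. At day 20 it was 1.90-fold lower than in native growth plate and 2.16-fold lower than in native articular cartilage. Between tissues the ratios were small, since growth plate was 1.21-fold lower than articular in native tissue, 1.13-fold higher at day 10 and 1.06-fold lower at day 20. The smallest gap in the order of the 6 arrays, 0.08 on the log2 scale between articular and growth plate day 20, was under the model's residual SD of 0.16, and the other 4 gaps were above it. That SD is the departure of these same 6 arrays from the additive model, so it does not test whether 2 arrays differ.

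In the model, the mean of the cultures was 2.31-fold lower than native, a log2 difference of -1.21 ± 0.18 (SE, 4 against 2 arrays) with a 95% interval of -1.66 to -0.76. With limma the unadjusted p was 0.000655 and the adjusted p over all probe sets was 0.126, so CTSK was not called. In the fit without native growth plate, where native tissue is the articular array alone, the difference was -1.37, and no call is read from that fit. Over the other alternatives the adjusted p lay between 0.0829 and 0.601. Growth plate minus articular was -0.06 ± 0.17 on the log2 scale, with an interval of -0.48 to 0.37, and day 20 minus day 10 was 0.38 ± 0.21, with an interval of -0.14 to 0.90.

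Since CTSK is also a marker of osteoclasts, other osteoclast genes were read beside it. Of the 6 measured, CALCR, the calcitonin receptor, and ATP6V0D2, a proton pump subunit, were under the floor on every array. ACP5, the acid phosphatase of osteoclasts, was above the floor only in native tissue, with culture signals of 26.3, 3.62, 2.06 and 13.5 against native signals of 63.5 and 46.6. MMP9 was above the floor only in native growth plate, at 47.0. The summed signal of the 6 genes was 353 and 254 in growth plate cultures and 155 and 203 in articular cultures. In native tissue it was 460 in growth plate and 174 in articular cartilage. ITGB3 was the largest part of this sum on every array, at 177 to 287 in growth plate and 70.8 to 94.2 in articular samples. Markers of pericytes and smooth muscle, summed over 4 genes and made up mostly of ACTA2, had 14932 and 18978 in growth plate cultures and 16474 and 21935 in articular cultures, against 12514 in native growth plate and 3739 in native articular cartilage. ACTA2 and DES were higher on every culture array than on either native array, while PDGFRB was lower than in the same native tissue on 3 of 4 culture arrays and RGS5 was above the floor on 1 array. Of the 6 chondrocyte markers, 5 were lower in culture in the model, with a median log2 difference of -0.43, and SOX9, a chondrocyte transcription factor, had 125 and 118 in growth plate cultures and 81.0 and 76.8 in articular cultures, against 175 and 982 in native growth plate and native articular cartilage. ACP5, SOX9, ACAN and COL2A1 were lower on every culture array than in the same native tissue, as CTSK was. For COL2A1 the growth plate day 20 signal, 1603, was close to the native 1615. COL11A1 was lower in growth plate cultures but higher in articular cultures, at 431 and 455 against 378. HAPLN1 had a culture minus native log2 difference of only -0.05. COMP was higher in culture, at 0.54, and ACTA2 and DES moved the other way from CTSK. NFATC1 at articular day 10 also moved the other way, and ITGB3 had a culture minus native log2 difference of -0.31 ± 0.36. The part of any of these genes in the CTSK difference was not tested. Of 8 macrophage markers, at most 2 were above the floor on any array, and CD163, PTPRC, C1QC, TYROBP and FCER1G were above it on none.

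**Figure D2:**
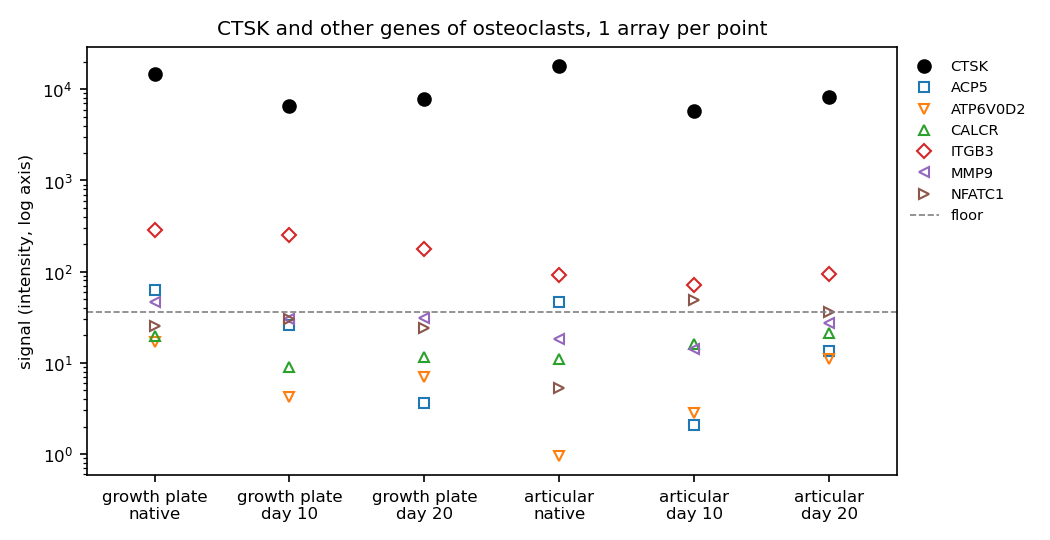
Signal intensity (log axis) of CTSK and of 6 other osteoclast genes on the 6 arrays, growth plate arrays on the left and articular arrays on the right, 1 point per array, with the floor of 36.1 dashed. CTSK is highest on the native arrays, CALCR and ATP6V0D2 lie under the floor throughout, and ACP5 lies over it on the native arrays only; levels of different probe sets are not comparable with each other.

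ADAMTS1 was far higher in growth plate than in articular samples in native tissue and at day 10, and not at day 20. Its probe set Ssc.12365.1.A1_at had growth plate signals of 1018 in native tissue, 944 at day 10 and 315 at day 20. In articular samples the signals were 54.9, 52.3 and 371. The high arrays were native and day 10 growth plate, the low arrays native and day 10 articular, and both day 20 arrays lay between them. In that order the largest gap, 2.52 on the log2 scale, lay between growth plate day 20 and native articular, and the next, 1.35, between growth plate day 10 and articular day 20.

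The second ADAMTS1 probe set, Ssc.16451.1.A1_at, gave the same picture. Growth plate had 579 in native tissue, 679 at day 10 and 137 at day 20, against articular signals of 20.2, 30.3 and 192, the first 2 of which were under the floor. Across the 6 arrays, which are 6 different conditions, the log2 signals of the 2 probe sets had a Pearson's r of 0.991, given as a description. Spearman's rho was 0.886. The largest gap between neighbours in the order of its arrays, at least 1.92 on the log2 scale, again lay under growth plate day 20. The probe sets are measurements of the same 6 RNA samples and are not replicates.

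By the first probe set, growth plate was 18.5-fold higher than articular in native tissue and 18.1-fold higher at day 10, and 1.18-fold lower at day 20. By the second, native tissue had a ratio of at least 16-fold and day 10 one of at least 18.8-fold, with growth plate higher, and at day 20 growth plate was 1.41-fold lower. Little separated day 10 from native tissue. The first probe set was 1.08-fold lower in growth plate and 1.05-fold lower in articular cultures at day 10, and the second was 1.17-fold higher in growth plate.

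Between day 10 and day 20 the tissues differed in opposite directions, which brought their signals close together. In growth plate cultures the first probe set was 3-fold lower at day 20 than at day 10, and the second 4.97-fold lower. In articular cultures the first was 7.09-fold higher at day 20 than at day 10, and the second at least 5.33-fold higher. Such a pairing, with growth plate cultures lower and articular cultures higher by 2-fold or more, was found for 23 of the 15636 probe sets tested (0.147%). Against native tissue, day 20 was 3.23-fold and 4.24-fold lower in growth plate and 6.75-fold and at least 5.33-fold higher in articular samples, a pairing found for 135 probe sets (0.863%). The difference between the tissues in the change against native was -4.45 on the log2 scale for the first probe set and -4.50 for the second. For the change against day 10 it was -4.41 and -4.73, and for day 10 against native -0.04 and 0.23. Those of the second probe set rest on articular signals raised to the floor, and none could be tested with 1 array per condition.

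An additive model described ADAMTS1 poorly. Its residual SDs of 1.81 and 1.88 were at percentiles 99.8 and 99.8 of all probe sets, whose median was 0.31. Growth plate minus articular was 2.72 ± 0.91 for the first probe set, a mean 6.58-fold, and, with 2 articular signals raised to the floor, 2.58 ± 0.95 for the second (SE, 3 against 3 arrays). The 95% intervals were 0.49 to 4.95 and 0.24 to 4.91. Both had a limma adjusted p of 0.509, and growth plate was higher in 2 of 3 pairs. With the one or the other day 20 array left out, the difference was 4.19 and 4.12, and without an array of the native or day 10 pair it was between 1.75 and 1.99. A floor at the 60th percentile gave 1.82 and 1.31. Culture minus native, at 0.22 ± 0.96 and 0.14 ± 1.01, and day 20 minus day 10, at 0.62 ± 1.11 and 0.05 ± 1.16, average changes of opposite sign and had intervals several log2 units wide.

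**Figure D3:**
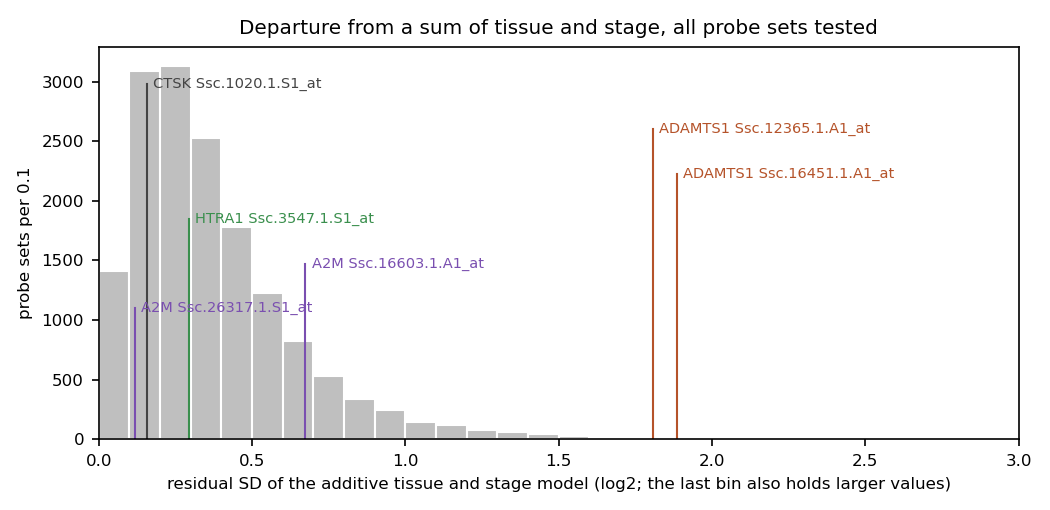
Number of probe sets (vertical axis) by residual SD of the additive model of tissue and stage, in log2 units, over all 15636 probe sets tested, with coloured lines at the 6 tested probe sets of the members. The ADAMTS1 lines, at 1.81 and 1.88, stand in the far right tail, while CTSK at 0.16 and HTRA1 at 0.29 stand below the overall median of 0.31.

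HTRA1 differed mainly between the culture days. Its probe set Ssc.3547.1.S1_at had growth plate signals of 4318 in native tissue, 2179 at day 10 and 4964 at day 20. The articular signals were 2499, 2212 and 4243. The day 10 arrays of both tissues were the lowest, native articular lay just above them, and the other 3 arrays lay close together at the top. Only 1 gap in the order of the arrays, 0.76 on the log2 scale between articular day 20 and native articular, was above the residual SD of 0.29.

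At day 20 HTRA1 was 2.28-fold higher than at day 10 in growth plate cultures and 1.92-fold higher in articular cultures. At day 10 it was 1.98-fold lower than in native growth plate, and 1.13-fold lower than in native articular cartilage. Between tissues, growth plate was 1.73-fold higher than articular in native tissue, 1.02-fold lower at day 10 and 1.17-fold higher at day 20. No tissue ratio reached 2-fold.

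In the model, HTRA1 was 2.09-fold higher at day 20 than at day 10, a log2 difference of 1.06 ± 0.26 (SE, 2 against 2 arrays) with a 95% interval of 0.41 to 1.71. The unadjusted limma p was 0.0073 and the adjusted p 0.264, so it was not called, and both tissues showed the direction. Over the alternatives the adjusted p lay between 0.135 and 0.987. Growth plate minus articular was 0.33 ± 0.22, with an interval of -0.20 to 0.86, and culture minus native was -0.05 ± 0.23, with an interval of -0.61 to 0.51. The other HTRA1 probe set, Ssc.3547.2.A1_at, was above the floor on 1 array only, at 59.4 on growth plate day 20, and was not tested. It had 18.1 and 35.0 on the other growth plate arrays and between 11.5 and 19.3 on the articular arrays, so it gives no reading of the day 10 to day 20 difference in articular cultures.

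Markers of fibroblasts differed between the culture days as well. The summed signal of 6 measured genes, among them THY1, LUM, DCN and COL1A2, was 32071 in growth plate and 20750 in articular cultures at day 20, against 5900 and 12654 at day 10, with 10650 in native growth plate and 5379 in native articular tissue. THY1 was its largest part in articular cultures, at 7416 and 10631, in native growth plate, at 6583, and in growth plate day 10, at 2894. All 6 genes were higher at day 20 in the model, with a median log2 difference of 1.63. The part of such cells, or of such a state of chondrocytes, in the HTRA1 difference was not tested.

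A2M, the inhibitor, was higher in growth plate than in articular samples at every stage by the 1 probe set that measured it above the floor on most arrays. That probe set, Ssc.16603.1.A1_at, had growth plate signals of 717 in native tissue, 669 at day 10 and 389 at day 20. In articular samples it had 11.7, which is under the floor, then 40.9 and 67.1. The lowest growth plate array lay 5.80-fold above the highest articular array, both at day 20. How many of all probe sets had all growth plate arrays above all articular arrays was not counted. The model's residual SD was 0.67, and the gaps from growth plate day 10 to day 20, of 0.78 on the log2 scale, from there to articular day 20, of 2.54, and from there to articular day 10, of 0.71, were above it. The gap of 0.10 between native and day 10 growth plate was under the residual SD. The gap from articular day 10 to native articular was not measured, since native lay under the floor. The residual SD comes from the same 6 arrays, so setting gaps against it describes them and does not test them.

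In native tissue the A2M signal of growth plate was 19.8-fold or more above that of articular cartilage, and it was 16.3-fold higher at day 10 and 5.80-fold higher at day 20. At day 20 growth plate had its lowest and articular its highest signal. At day 20 A2M was 1.84-fold lower than in native growth plate and 1.72-fold lower than in growth plate cultures at day 10. In articular cultures it was 1.64-fold higher at day 20 than at day 10, and at least 1.86-fold higher than in native tissue. At day 10 it was 1.07-fold lower than in native growth plate. All ratios within a tissue that were measured on both sides were under 2-fold, and the size of the articular ratio to native tissue is not known above its bound. The growth plate change minus the articular change, from native to day 20, was -1.77 on the log2 scale with native articular at the floor, and was not tested.

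In the model, with native articular raised to the floor, the tissue difference of A2M was 3.63 ± 0.44 (SE, 3 against 3 arrays) on the log2 scale, a mean of 12.3-fold, with a 95% interval of 2.55 to 4.70. The unadjusted limma p was 0.000191 and the adjusted p 0.145, so A2M was not called. Growth plate was higher in 3 of 3 pairs. The spread of the native articular signal under the floor does not enter this error. Over the alternatives the difference lay between 2.07, with a floor at the 60th percentile, and 4.17, without the one or the other day 20 array, and the adjusted p lay between 0.101 and 0.829. Culture minus native was 0.02 ± 0.46 and day 20 minus day 10 was -0.03 ± 0.54.

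The other A2M probe sets did not give this difference. Ssc.26317.1.A1_at was under the floor on all 6 arrays, with signals between 2.96 and 33.1. Ssc.26317.1.S1_at was above the floor on 2 arrays, with 38.7 in native growth plate and 45.3 in growth plate at day 10, and had 32.2 in growth plate at day 20 against articular signals of 11.4, 33.2 and 13.7. It passed the filter through those 2 growth plate arrays, and its log2 tissue difference was 0.14 ± 0.17. The tissue difference of A2M therefore rests on 1 of 3 probe sets, and the other 2 were too dim to measure it.

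A2M is abundant in blood plasma and is also made by other cells, so markers of these were read beside it. Summed over 6 measured genes, blood and plasma markers had signals of 692 to 988 in growth plate and 503 to 1201 in articular samples, which overlap. HBB, APOA1 and FGB were above the floor on 6 of 6 arrays and SERPINA1 on 5, while ALB and TTR were above it on 1 and 0. Endothelial markers were lower in growth plate, at a summed 331 to 549 against 865 to 1082, led by ERG, which chondrocytes also express. PECAM1 was above the floor on 6 of 6 arrays, at 52.6 to 67.2 in growth plate against 65.6 to 277 in articular samples. VWF, CDH5, KDR and TEK were under the floor on every array. Osteoblast markers, several of which mineralising chondrocytes share, were higher in growth plate, at a sum over 6 genes of 26383 to 31958 against 11095 to 19426. ALPL, the alkaline phosphatase, at 1522 to 3057 in growth plate against 24.2 to 90.9, and IBSP, a bone matrix protein, at 10642 to 15675 against 53.2 to 5958, were at least 2-fold higher in every pair, as A2M was. SPP1, BGLAP and DMP1 overlapped between the tissues, and SP7, a transcription factor of osteoblasts, was above the floor on 1 array, articular day 20. ITGB3, an integrin of osteoclasts and other cells, was also higher, at 177 to 287 in growth plate against 70.8 to 94.2 in articular samples. The part of such cells in the A2M and ADAMTS1 differences was not tested.

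**Figure D4:**
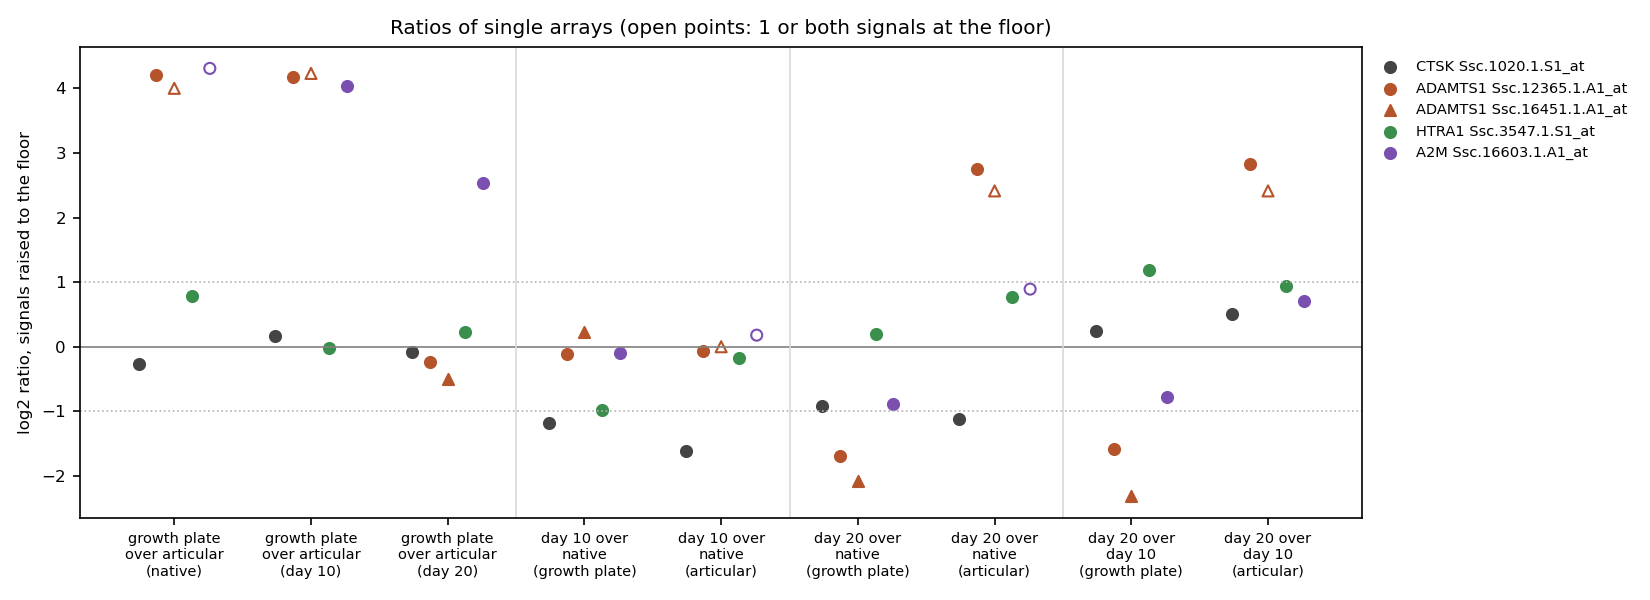
Log2 ratio of 1 array to another for CTSK, ADAMTS1 (2 probe sets), HTRA1 and A2M over the 9 pairs of arrays, after signals were raised to the floor; dotted lines mark 2-fold, and open points involve a signal at the floor. ADAMTS1 stands above 4 in the first 2 pairs and on opposite sides of 0 in the last 2, and A2M is positive in the first 3.

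Set against all probe sets, the counts were as follows. Between tissues, 0 of the 6 tested probe sets of the members were called, as were 0 of 15636 (0%), while 1496 of these (9.57%) had an unadjusted limma p under 0.05, among them both of ADAMTS1 and 1 of A2M. For culture minus native, 0 of 6 were called and 1 of 15636 (0.0064%), which was ACTG2, a smooth muscle actin gene, named after its values were seen. The native signals of ACTG2, 21.2 and 24.6, were both under the floor, so their spread does not enter its error. In this comparison 2880 (18.4%) had an unadjusted limma p under 0.05, among them CTSK. For day 20 minus day 10, 0 of 6 were called and 0 of 15636 (0%), with 1987 (12.7%) at an unadjusted p under 0.05, among them HTRA1.

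In the model, 3 of the 6 were at least 2-fold higher in growth plate (3.49% of all) and 0 lower (1.79%), which were both of ADAMTS1 and 1 of A2M. For culture minus native 0 were higher (6.78%) and CTSK was lower (4.16%), and for day 20 minus day 10 HTRA1 was higher (4.55%) and 0 were lower (5.12%).

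Between single arrays, with signals raised to the floor, 3 of the 6 were at least 2-fold higher in growth plate in native tissue, where 15.5% of all probe sets were. At day 10 there were 3, against 4.62% of all, and at day 20 there was 1, against 3.51%. None of the 6 was lower in growth plate by 2-fold or more in any of these pairs, against 7.51%, 3.75% and 4.12% of all. The 1 probe set at least 2-fold higher in all 3 pairs was that of A2M, and 102 of all probe sets (0.652%) were, with 49 (0.313%) lower in all 3. No member was at least 2-fold higher or lower in all 4 pairs of culture with native tissue, where 0.87% and 0.742% of all were, or in both pairs of day 20 with day 10, where 2.3% and 2.87% were.

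At day 10 against native tissue, CTSK was the 1 of 6 that was lower by 2-fold or more, for growth plate and for articular samples alike, against 7.55% and 9.88% of all probe sets, and 0 were higher, against 7.88% and 17%. At day 20 against native, 2 were lower in growth plate (7.14% of all) and 0 higher (5.04% of all), and in articular samples 2 were higher (16% of all) and 1 lower (9.36% of all). Between the culture days, growth plate had 1 higher and 2 lower (6.46% and 8.16% of all), and articular cultures had 2 higher (5.5% of all) and 0 lower (5.74% of all). The members were chosen with results of these arrays known, so these shares describe them and show nothing particular to them.

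**Figure D5:**
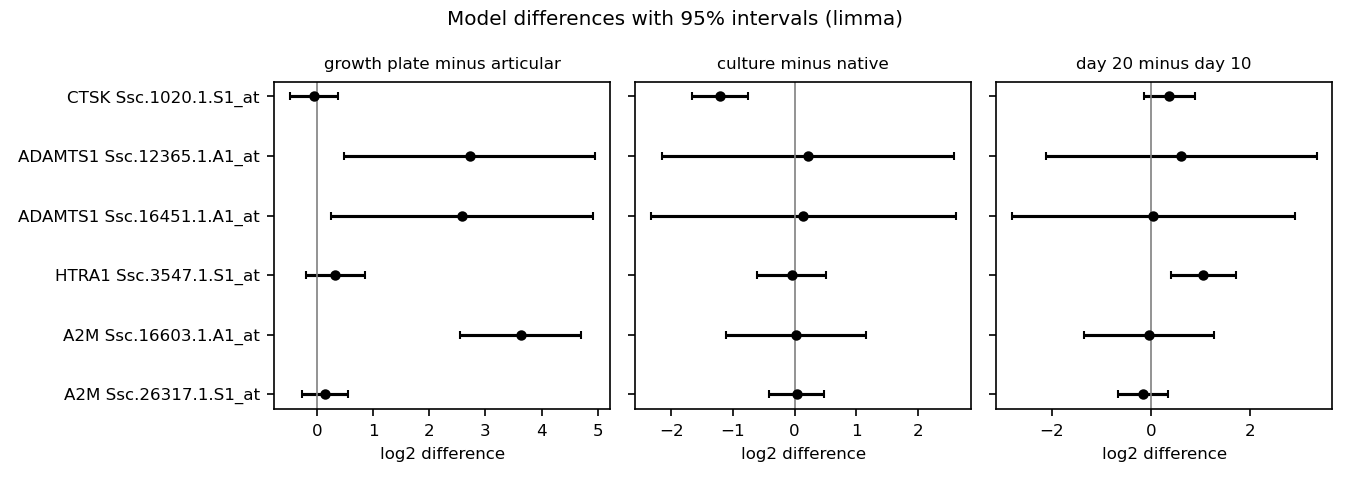
Log2 differences of the additive model with 95% intervals (limma) for the 6 tested probe sets of the members, in the comparisons of tissue, of culture with native tissue and of day 20 with day 10. A2M Ssc.16603.1.A1_at and ADAMTS1 lie right of 0 in the first panel, CTSK left of 0 in the second and HTRA1 right of 0 in the third; none passed the adjusted threshold.

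Other proteases, inhibitors and their receptors were read from 5 lists with 40 measured genes, of which 0 were called in any of the 3 comparisons. Between tissues 8 of the 40 were at least 2-fold higher in growth plate and 4 lower, with a median log2 difference of 0.09, against 3% and 2.23% of 5605 genes and a median of -0.04. The list medians were -0.0017 for 5 metalloproteases, 0.38 for 6 genes of the ADAM and ADAMTS list, 0.24 for 9 cathepsins and other lysosomal proteases, -0.15 for 6 serine proteases and 0.07 for 14 inhibitors and receptors. The ADAM and ADAMTS list also holds BMP1, a metalloprotease of another family. MMP13, the collagenase of mineralising cartilage, at 2.69 ± 0.53, was higher in every pair of arrays. Its articular culture signals, 27.0 and 30.5, were under the floor. PLAU, the urokinase protease, at -2.16 ± 0.21, and TFPI2, a serine protease inhibitor, at -1.51 ± 0.22, were lower in every pair. None of the 6 measured genes of the ADAM and ADAMTS list was 2-fold apart in every pair, as ADAMTS1 was not. ADAM9 and ADAMTS6, at 1.15 ± 0.29 and 1.08 ± 0.37, had the largest differences, and in the cathepsin list CTSZ and CTSS did, at 1.05 ± 0.27 and 1.01 ± 0.50.

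For culture minus native, 2 of the 40 were at least 2-fold higher and 4 lower, with a median of -0.27 against 0.06 over all genes. The medians of the same lists were -0.86, -0.50, 0.05, 0.11 and -0.10. F3, the tissue factor that starts clotting, at 3.34 ± 0.61, was 2-fold higher in every pair. No cathepsin of the 9 measured was 2-fold apart, where CTSK was at -1.21, and LGMN, a lysosomal protease, and CTSZ had the largest differences, at -0.82 ± 0.24 and 0.82 ± 0.29. Among metalloproteases MMP3 and MMP1 had -3.66 ± 1.37 and -2.07 ± 0.66, where MMP3 was above the floor on 2 arrays only and had 4319 in native articular cartilage and 48.3 in native growth plate. In the ADAM and ADAMTS list ADAM15, above the floor on 3 arrays only, and BMP1 had -0.81 ± 0.47 and -0.63 ± 0.26. Among inhibitors SERPINA1 and TIMP3 had -3.15 ± 0.73 and -1.42 ± 0.78.

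For day 20 minus day 10, the same 40 genes had 10 at least 2-fold higher and 2 lower, with a median of 0.44 against -0.02 over all genes, where HTRA1 was at 1.06. The list medians were 0.39, 0.06, 0.85, 0.47 and 0.33, in the same order. All 9 cathepsins and lysosomal proteases had positive differences, and CTSH and CTSZ, at 1.61 ± 0.27 and 1.42 ± 0.34, were 2-fold higher in both pairs. HTRA4, of the same family as HTRA1, was lower in both, at -2.47 ± 0.40, and was above the floor on 3 arrays only. In the list of inhibitors and receptors, SERPINF1, SERPING1 and TFPI2 were higher in both, at 1.93 ± 0.58, 1.66 ± 0.57 and 1.41 ± 0.27. The largest differences were 1.09 ± 0.28 for MMP2 and 0.44 ± 0.77 for MMP1 among metalloproteases, and 0.55 ± 0.55 for ADAM15 and 0.37 ± 0.31 for BMP1 in the ADAM and ADAMTS list.

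Among 13 measured substrates, 0 were called in any comparison. VCAN, which encodes versican, a substrate of ADAMTS1, gave growth plate signals of 84.8, 136 and 1312 for native, day 10 and day 20, against articular signals of 92.0, 457 and 2489. It was 2-fold higher at day 20 than at day 10 in both tissues, at 2.86 ± 0.46, with a limma adjusted p of 0.219. In articular cultures VCAN and ADAMTS1 were both higher at day 20 than at day 10, and in growth plate cultures VCAN was higher and ADAMTS1 lower. LUM, a small leucine-rich proteoglycan, and VCAN had the largest differences of culture from native, at 3.71 ± 1.04 and 2.93 ± 0.40. In native articular cartilage LUM was under the floor, at 15.5. TGFB2 was higher in growth plate in every pair, at 1.71 ± 0.21. The list medians were -0.10 for growth plate minus articular, 0.18 for culture minus native and 0.68 for day 20 minus day 10.

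The genes whose log2 signals ran most like those of each member were taken by Pearson's r over the 6 arrays, among genes above the floor on at least 4 arrays and at least 4-fold between the highest and lowest array. With 6 points and 842 candidates, or 841 where the member was itself among them, high values of r are easily found, and they are given as a description. For CTSK these were FNBP4 (r = 0.981), CXCL8, a neutrophil chemokine (r = 0.978), and RNF19B (r = 0.974). For ADAMTS1 they were ANGPT1, a growth factor of vessels (r = 0.948), LRRC1 (r = 0.944) and WNK4, a kinase of ion transport (r = 0.939). HTRA1 had VWA1, a matrix protein of cartilage (r = 0.988), TEC, a tyrosine kinase (r = 0.977), and EGFL8 (r = 0.974). A2M had ANGPT1 (r = 0.982), ENPP2, the enzyme that makes lysophosphatidic acid (r = 0.980), and ALPL, the alkaline phosphatase of mineralising cells (r = 0.980). ANGPT1 was thus on the lists of both A2M and ADAMTS1. Growth plate had 1642 in native tissue, 1338 at day 10 and 704 at day 20 for it, against articular signals of 48.8, 79.8 and 216.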

How the data were processed

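Total RNA of 6 pig samples was hybridised to 6 Affymetrix arrays, and GCOS 1.4 made the signal intensities, per the submitters' processing notes. The deposited intensities are linear. The mean signal without the top and bottom 2% of probe sets differed between arrays no more than 1.00005-fold, so no further normalization was applied, and the scaling target and algorithm settings are not given in the sources used here. The 124 control probe sets of 24123 were left out. Signals were raised to the 40th percentile of all signals and log2 was taken. Probe sets above that floor on at least 2 arrays were fitted with limma 3.58.1 in R 4.3.3 as tissue plus stage, with the prior variance allowed to follow intensity, on 2 residual degrees of freedom and 3.84 from the prior. Calls needed a Benjamini-Hochberg adjusted p under 0.05 over all 15636 probe sets and at least 2-fold. A fold with its lower side at the floor is a lower bound. The fit was tested on simulated data. The number of arrays limits the precision, and nothing says whether samples were separate animals.

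Of 23999 probe sets, 10069 had 1 symbol, 198 several and 13732 none in the platform's annotation; names were updated through RefSeq gene IDs for 9961. Other genes are represented by their brightest probe set. The 6 gene lists and 8 marker lists were written from general knowledge; members and lists were chosen with earlier results of these data known. Every probe set of the 4 genes is named. Of each gene list, genes at least 2-fold apart in every pair of a comparison are named, up to 4 each way, or else the 2 with the largest difference, and for each member the 3 genes of most like pattern. Sequences and genome positions were not used here. Alternatives were other normalizations, floors and filters, a pseudocount of 16, 1 probe set per gene, no intensity trend, a 4-fold rule and leaving out each array.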

Additional observations from a re-analysis of the deposited data

Results flagged for a closer look

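ADAMTS1 stood out because the tissues differed in opposite directions in the same comparison. Its probe set Ssc.12365.1.A1_at had a log2 ratio of day 20 to native tissue of -1.69 in growth plate and 2.75 in articular samples, and of day 20 to day 10 of -1.58 in growth plate cultures but 2.83 in articular cultures. Its probe set Ssc.16451.1.A1_at had day 20 to native ratios of -2.08 in growth plate and at least 2.41 in articular samples, and day 20 to day 10 ratios of -2.31 in growth plate and at least 2.41 in articular cultures. The last 2 articular bounds are equal because native and day 10 signals were both under the floor. The difference between the tissues was not tested, since each condition is 1 array.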

How the results depend on the processing

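Under 9 other settings of normalization, floor, filter, features and prior, no tested probe set of the 4 genes was called, and 136 of 144 of their model differences kept direction and side of the threshold. The 8 that turned direction were CTSK between tissues (0.10 with quantile normalization), A2M Ssc.16603.1.A1_at between days (0.00054 with median centring) and ADAMTS1 Ssc.16451.1.A1_at between days (-0.0089 with the pseudocount). With the floor at the 60th percentile, culture minus native became -0.088 and -0.34 for the 2 ADAMTS1 probe sets and -0.24 for A2M, and day 20 minus day 10 became -0.068 and -0.91 for ADAMTS1. Leaving out 1 array at a time turned 21 of 108 values, and growth plate minus articular ranged from -0.17 to 0.048 for CTSK. Culture minus native ranged from -0.90 to 1.34 and from -1.01 to 1.29 for ADAMTS1, from -0.49 to 0.54 and from -0.038 to 0.10 for the A2M probe sets, and from -0.39 to 0.29 for HTRA1. Day 20 minus day 10 ranged from -1.59 to 2.83 and from -2.26 to 2.36 for ADAMTS1 and from -0.85 to 0.78 for A2M Ssc.16603.1.A1_at. The probe sets called between tissues, 0 in the main setting, numbered 5 with quantile normalization, 6 with median centring, 6 with the floor at the 25th percentile, 10 with the pseudocount and 3 with 1 probe set per gene. Those called between culture and native tissue, 1 in the main setting, numbered 3 with median centring, 2 with the lower floor or the pseudocount, and 0 with the higher floor, with no filter or with 1 probe set per gene. They ranged from 0 to 564 when an array was left out, with 564 without native growth plate; the cause was not tested. Of 54 ratios of single arrays, 19 were at least 2-fold apart, 13 at least 4-fold, and between 17 and 25 at least 2-fold under quantile normalization and other floors. No paired analysis by replicate number was possible because the labels give none and each condition is 1 array; the model itself compares the tissues within stages. Signal over background limits 1 HTRA1 and 2 A2M probe sets, the second ADAMTS1 probe set in native and day 10 articular samples, and A2M Ssc.16603.1.A1_at in native articular cartilage.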
